A study of Mus musculus with 335 samples.

Results

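The 8 genes described here encode the mouse T cell receptor complex and its partners: Cd3d, Cd3e and Cd3g, the coreceptor genes Cd4, Cd8a and Cd8b1, the kinase gene Lck and the costimulatory receptor gene Cd28. They were chosen by symbol, and all 8 were found among 20188 genes of the deposited table. Their levels were followed through 335 bulk RNA libraries in 61 groups of mouse mammary tumours, metastases, neighbouring and healthy tissue and cultured tumour cells. Libraries of the same tissue of 1 animal were averaged, which left 281 profiles, 1 per animal or culture. The study was set up to compare metastases with the primary tumours of the same animals across models.

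T cells recognise peptides held by MHC molecules through a receptor whose signal passes through the CD3 chains. CD4 binds MHC class II and CD8, a dimer of the Cd8a and Cd8b1 products, binds MHC class I. Both coreceptors carry the kinase LCK, which phosphorylates the CD3 chains once the receptor is engaged, and CD28 gives the second signal when it meets CD80 or CD86 on an antigen-presenting cell. In a bulk tumour library the level of these genes is commonly read as a mark of T cell infiltration, although some mouse dendritic cells also carry Cd4 or Cd8a.

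Lung metastases came from 88 animals in 16 groups, liver metastases from 13 animals, spleen metastases from 4 and brain metastases from 2. Primary tumours came from 123 animals in 22 groups, and 4 further Met1 tumours had been resected while the animal lived on. Tissue labelled adjacent was taken from lung in 5 animals, liver in 8 and spleen in 2, and healthy lung and healthy liver from 4 animals each. The adjacent lungs are titled tumour-adjacent, and their titles do not say how near a metastasis they lay. Cultured cells of 7 lines gave 24 profiles. No animal was treated with an agent.

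Orthotopic tumours grew from cell lines placed in the mammary gland. 4T1, 4T07, 67NR, D2A1, EMT6, F311 and TSAE1 are BALB lines with no driver named, 6DT1 (cMyc), Mvt1 (cMYC and VEGF), Met1 (PyMT) and HRM1 (Pik3ca) are FVB lines, M6 carries SV40T, E0771 is a BL6 line and R3T a 129S1J line. Autochthonous tumours came from MMTV-PyMT mice on FVB or with BL6, BL10, CAST or MOLF parentage, and from MMTV-Myc, MMTV-Neu and C3Tag (SV40T) mice. Titles name FVB for the MMTV-Myc tumours, an MMTV-Neu mouse and the healthy lungs, which served as reference for lung tissue in every model. The MMTV promoter drives the transgene in the mammary epithelium. Metastases of 4T1, 6DT1, Mvt1 and Met1 were also raised by tail vein injection, and those of M6 and Met1 by intracardiac injection. Each line is a single cultured population, so that animals bearing it are replicates of the host and not of the tumour. Hosts of orthotopic M6 tumours are labelled strain REAR and hosts of intracardiac M6 cells FVB.

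Counted reads per library, recovered from the steps of the RPKM values, were 8106344 at the lowest, 27175852 at the median and 54906212 at the highest. RPKM scale reads to transcript length and library depth, but not to the mix of RNA in a sample, which limits comparison of unlike tissues. In M6 intracardiac liver metastases, 81.9% of genes passed as higher than in adjacent liver. The labelled tissues were checked against marker genes. Summed levels of 5 epithelial tumour genes were 1501 to 1829 RPKM in M6 primary tumours, but only 5.24 RPKM in the M6 brain metastasis and 24.0 RPKM in the Met1 brain metastasis, in which tumour markers were thus nearly absent. They were also 0.649 to 4.73 RPKM in 67NR tumours. Lung metastases held lung tissue: the share of lung RNA, estimated from 9 lung epithelium genes against healthy lung, had a median of 7.62% in MOLF metastases and 29.9% in 6DT1 metastases, the lowest and the highest of the 10 paired models.

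Start-site sequences of the CD3 chains and Lck are shown because the 3 CD3 genes moved together through the groups while Lck departed from them in M6. The CD3 genes lie side by side on chromosome 9, with 1338 bases between Cd3g and Cd3d and 11683 bases between Cd3d and Cd3e, and Cd8b1 and Cd8a are 35935 bases apart. Each sequence runs 5′ to 3′ on the strand of the gene from 250 bases before to 50 bases after the RefSeq start (GRCm38.p6). Capitals mark AGGAAGT, a match to the ETS core, and CACCTG, an E box, on either strand, so that matches on the other strand read ACTTCCT and CAGGTG.
Cd3g, chr9:44980382-44980681, minus strand: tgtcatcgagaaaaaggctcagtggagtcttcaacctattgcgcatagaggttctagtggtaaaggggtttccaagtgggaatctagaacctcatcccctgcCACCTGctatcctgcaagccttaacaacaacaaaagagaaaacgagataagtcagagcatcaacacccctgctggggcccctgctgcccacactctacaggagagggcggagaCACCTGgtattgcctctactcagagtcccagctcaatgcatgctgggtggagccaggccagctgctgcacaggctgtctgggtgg
Cd3d, chr9:44981536-44981835, plus strand: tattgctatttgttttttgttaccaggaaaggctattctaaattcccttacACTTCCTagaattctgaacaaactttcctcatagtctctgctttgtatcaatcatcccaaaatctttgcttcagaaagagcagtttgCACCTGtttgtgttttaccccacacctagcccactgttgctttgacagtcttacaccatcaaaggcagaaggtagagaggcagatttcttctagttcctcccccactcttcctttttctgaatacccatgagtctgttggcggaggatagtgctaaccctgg
Cd3e, chr9:45009562-45009861, minus strand: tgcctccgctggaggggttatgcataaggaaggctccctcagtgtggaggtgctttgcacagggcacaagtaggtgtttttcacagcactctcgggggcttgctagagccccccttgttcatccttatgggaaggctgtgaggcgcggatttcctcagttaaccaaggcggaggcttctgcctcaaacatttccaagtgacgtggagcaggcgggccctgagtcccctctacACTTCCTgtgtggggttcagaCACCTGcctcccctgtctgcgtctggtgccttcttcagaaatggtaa
Lck, chr4:129558323-129558622, minus strand: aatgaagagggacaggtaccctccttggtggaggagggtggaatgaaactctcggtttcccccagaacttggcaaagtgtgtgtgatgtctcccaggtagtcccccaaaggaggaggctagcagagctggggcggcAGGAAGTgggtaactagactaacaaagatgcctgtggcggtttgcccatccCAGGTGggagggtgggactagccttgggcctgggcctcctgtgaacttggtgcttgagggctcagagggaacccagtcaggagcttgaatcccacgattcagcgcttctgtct
Lck, chr4:129573592-129573891, minus strand: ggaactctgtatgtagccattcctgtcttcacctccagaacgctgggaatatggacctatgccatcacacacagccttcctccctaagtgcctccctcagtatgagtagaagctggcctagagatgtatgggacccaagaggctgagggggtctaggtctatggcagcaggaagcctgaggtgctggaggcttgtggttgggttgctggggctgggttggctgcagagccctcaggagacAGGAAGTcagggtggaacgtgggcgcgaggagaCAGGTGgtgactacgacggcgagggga
RefSeq promoters were found for 5 of the 8 genes, with 2 starts for Lck. AGGAAGT was present in 4 of these 6 windows and CACCTG in 5 of 6, against 9.351% and 20.212% of 32851 mouse promoters of the same length. The motifs did not overlap each other in the windows shown. The Cd8a window held neither. A match says only that the letters are there. The RPKM values give 1 level for Lck and do not tell its 2 starts apart.

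By group median the CD3 chain genes were highest in spleen samples, intermediate in lung and in a few tumour lines, and close to 0 in cultured cells. By mean, EMT6 tumours held 22.0 RPKM Cd3g and 13.5 RPKM Cd3d, above the 13.3 and 11.0 RPKM of M6 spleen metastases. Single tumours reached 95.8 RPKM Cd3g and 42.1 RPKM Cd3d. Cd3e, whose product is needed for assembly of every T cell receptor complex, averaged 28.5 RPKM in the 2 Met1 spleen metastases, 20.1 RPKM in the 2 M6 spleen metastases and 19.6 RPKM in the 2 Met1 adjacent spleens. The spleen is itself a lymphoid organ, and the ranges of these groups overlapped. Adjacent lung held 1.64 to 3.72 RPKM Cd3e in 5 animals and healthy lung 2.19 to 3.45 RPKM in 4 animals. In bulk RNA fewer cells of a type and less RNA per cell cannot be told apart. Among primary tumour groups the median of Cd3e ran from 2.68 RPKM in 4T07 through 2.30 in EMT6, 2.23 in F311, 1.68 in 6DT1 and 1.46 in TSAE1 to 0.0487 RPKM in M6. The ranges of the groups at the top overlapped, so that their order was not resolved. In 24 cultured cell profiles Cd3e was never above 0.04 RPKM.

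Cd3g had the highest median of the 3 chains in every primary tumour group, and the highest mean in healthy and adjacent lung. Its median was 11.4 RPKM in F311 tumours, the highest tumour group by that gene. In healthy lung Cd3g averaged 9.09 ± 2.31 RPKM, Cd3d 4.71 ± 1.22 RPKM and Cd3e 2.68 ± 0.56 RPKM (SD, n = 4). At 1 RPKM or more were 161 of 281 profiles for Cd3g, 105 for Cd3d and 98 for Cd3e. In tumours the counts were 69, 37 and 40 of 123 animals, and in lung metastases 71, 50 and 40 of 88. None of the 24 cultures reached 1 RPKM for any CD3 chain.

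The coreceptors reached 1 RPKM in 97 of 281 profiles for Cd4, 77 for Cd8a and 96 for Cd8b1. By median, Cd4 was highest among primary tumour groups in 6DT1 at 4.09 RPKM, and Cd8a and Cd8b1 were highest in EMT6 at 4.48 and 5.71 RPKM. In healthy lung Cd4 averaged 2.54 ± 0.75 RPKM, Cd8a 1.28 ± 0.54 RPKM and Cd8b1 1.96 ± 0.36 RPKM (SD, n = 4). In spleen, Cd4 averaged 13.7 RPKM in Met1 spleen metastases, 16.3 RPKM in M6 spleen metastases and 9.82 RPKM in Met1 adjacent spleen. Cd8b1 was above Cd4 in the Met1 spleen metastases, at a mean of 15.8 RPKM, and below it in the M6 spleen metastases, while in Met1 adjacent spleen 1 of 2 mice had more Cd8b1 than Cd4. Healthy liver held little of any coreceptor, with Cd4 of 0.231 ± 0.067 RPKM (SD, n = 4). Cd28, the least abundant of the 8 genes, reached 1 RPKM in 49 profiles, and its highest tumour group by median was 6DT1 at 1.87 RPKM. It was above background in 2 cultured lines: the 3 6DT1 cultures held 0.688, 0.828 and 1.03 RPKM and the 3 Mvt1 cultures 0.436, 0.917 and 1.41 RPKM, all with Cd3e at 0 or 0.0199 RPKM. How far such cells carry the Cd28 level of 6DT1 and Mvt1 tumours was not tested.

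**Figure D1:**
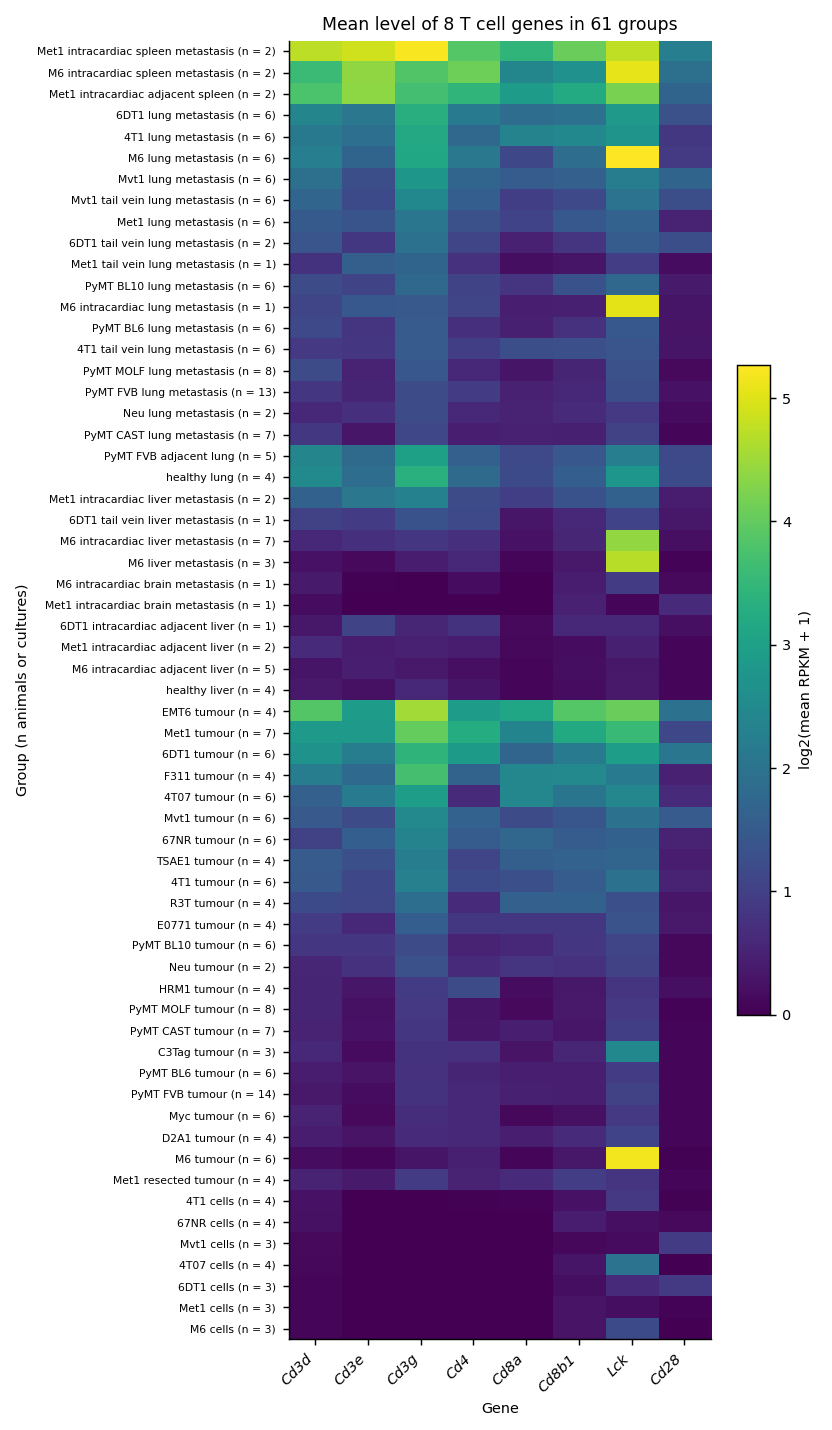
Mean level of each of the 8 genes, as log2(mean RPKM + 1) by colour, in 61 groups (rows, with the number of animals or cultures) ordered by tissue and, within tissue, by the CD3 chains. Spleen samples are bright throughout, cultured cells are dark, and the Lck column is bright in M6 tumours and metastases where the other columns are dark.

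Across the 61 group means the CD3 chains and coreceptors followed each other more closely than Cd28 and Lck followed them. Pearson r on log2(RPKM + 1) was highest between Cd8a and Cd8b1 at 0.97 and between Cd3d and Cd3g at 0.96, and lowest among these 6 genes between Cd4 and Cd8a at 0.85. Cd28 had r of 0.74 with Cd8a to 0.85 with Cd3d. Lck had r of 0.68 with Cd4 and 0.64 with Cd3d. Without the M6 and C3Tag groups, which left 51, Lck had r of 0.92 with Cd4 and 0.95 with Cd3d, and Cd28 of 0.70 with Cd8a to 0.83 with Cd3d. These are descriptions over groups that share lines, organs and depth.

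The genes whose group means were most like those of the CD3 chains, among 13030 genes, were Gimap3 (r = 0.976) and Gimap7 (0.975), GTPases of lymphocytes, followed by Ptprcap, Cd6, Ltb, the homing receptor Ccr7, Cd96, Stat4 and Cd2, the last at r = 0.952. Leaving out the 3 spleen groups gave r of 0.965 for Gimap3 and 0.927 for Cd2 over 58 groups. For Cd4 the 5 most alike were Cd5, Cd6, Ltb, Ptprcap and Gimap3, with r of 0.962 to 0.948. For Cd8a they were Cst7 (0.937), the cytotoxic granule gene Nkg7 (0.932), Sh2d2a, Cd180 and Cd69 (0.911).

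Lck departed from the CD3 chains in M6. In the 6 M6 primary tumours Lck was 36.2, 29.3, 1.02, 56.7, 32.1 and 55.7 RPKM, where the first value is that of mouse 820 and the third that of mouse 870. Cd3e in the same tumours was 0.0178, 0, 0.108, 0.0585, 0.0389 and 0.0872 RPKM. Over the 6 libraries this was 20745 reads of Lck against 17 reads of Cd3e, 38 of Cd3d and 59 of Cd3g. Only mouse 870 had Lck near the level of other models.

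High Lck without CD3 recurred in M6 metastases. Of 30 profiles at 10 RPKM Lck or more, 12 had Cd3e under 1 RPKM, and all 12 were M6: 5 of 7 intracardiac liver metastases, 2 of 3 orthotopic liver metastases and 5 of 6 primary tumours. The ratio of Lck to the mean of the 3 CD3 chains had a median of 158 in orthotopic M6 liver metastases, 28.1 in intracardiac M6 liver metastases, 9.53 in M6 lung metastases, 2.29 in M6 spleen metastases and 278 in M6 primary tumours. Among tissue groups outside M6 the highest medians were 11.9 in C3Tag tumours, the other SV40T model, and 4.37 in D2A1 tumours. The 3 C3Tag tumours held Lck between 3.25 and 5.71 RPKM with Cd3e between 0.0225 and 0.238 RPKM.

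The M6 cells in culture held less Lck than 5 of 6 M6 primary tumours, while the tumour of mouse 870, at 1.02 RPKM, lay within the range of the cultures. The 3 M6 cultures had 2.31, 0.659 and 0.833 RPKM Lck and 0 reads of Cd3e, Cd3g, Cd4 and Cd8a. 4T07 cells also carried Lck, at 2.54 to 3.33 RPKM in 4 cultures with 2 reads of Cd3e in all. Over 7 lines, Lck was 2.06 ± 0.40 higher in tumours than in cultured cells on the log2(RPKM + 1) scale (SE, adjusted p = 0.007, limma). It was the only member at or above 1 RPKM in enough profiles to be tested, and 22.2% of all genes tested passed, with 12.2% higher in tumours. Only 2 of 7 cultured lines averaged 1 RPKM Lck or more, so the gene was admitted to the test through the tumours, and its passing is no support in itself. Without M6 the filter admitted more members and 6 passed, and with no filter all 8 did.

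Primary M6 tumours were compared with primary C3Tag tumours. Lck averaged 35.2 ± 20.5 RPKM in M6 tumours (SD, n = 6) and 4.46 ± 1.23 RPKM in C3Tag tumours (SD, n = 3), and the groups overlapped through mouse 870. The difference of 2.22 ± 0.94 (log2, SE) missed the threshold (adjusted p = 0.147, limma, with 1 under 0.05 before adjustment), where 14.8% of genes passed. Leaving out mouse 870 brought it past the threshold, and without the filter 4 members passed. The median over all genes tested was -0.16. C3Tag tumours carry differing strain entries in the labels.

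**Figure D2:**
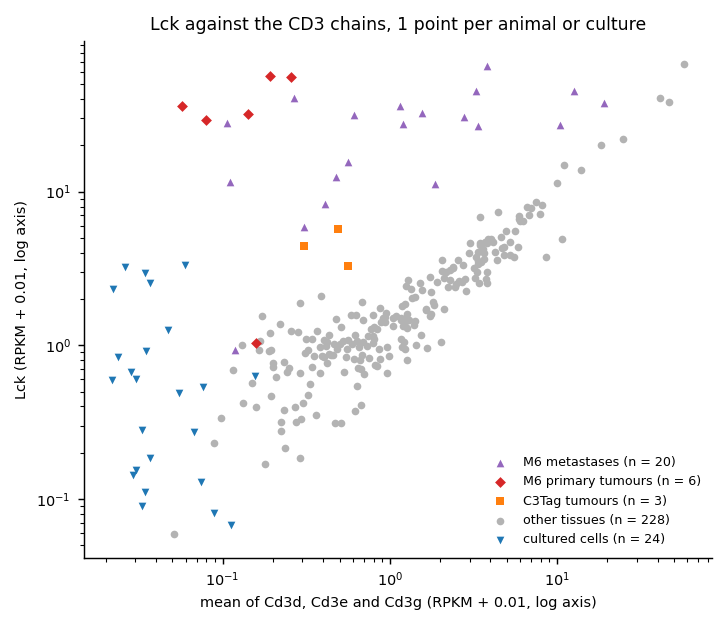
Lck against the mean of Cd3d, Cd3e and Cd3g, in RPKM plus 0.01 on log axes, 1 point per animal or culture (281 profiles). Most tissue samples lie along a single band, while 5 of 6 M6 tumours, M6 liver and lung metastases, the 3 C3Tag tumours and, at very low CD3, cultures such as those of 4T07 and M6 lie above it.

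Lung metastases were compared with the primary tumours of the same mice in 10 models. In M6 the T cell receptor genes were near 0 in tumours and clearly present in metastases. Cd3d was 1.86, 2.81 and 9.18 RPKM (lowest, median, highest of 6) in metastases and 0.0225, 0.12 and 0.211 RPKM in tumours. Cd3g was 2.54, 5.48 and 23.2 RPKM in metastases and 0.0454, 0.229 and 0.445 RPKM in tumours. No metastasis overlapped a tumour for either gene, but the share of all genes without overlap was not counted.

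On the log2(RPKM + 1) scale Cd3d was 1.95 ± 0.23 higher in M6 metastases (SE, 6 of 6 pairs, adjusted p = 0.0031), Cd3e 1.52 ± 0.22 (adjusted p = 0.0077), Cd3g 2.54 ± 0.35 (adjusted p = 0.0073) and Cd4 1.58 ± 0.21 (adjusted p = 0.0045), all by limma with the mouse as a block. Cd3e averaged 2.26 ± 1.65 RPKM in metastases and 0.0517 ± 0.0411 RPKM in tumours, and Cd4 averaged 3.33 ± 1.75 RPKM in metastases and 0.375 ± 0.102 RPKM in tumours (SD, n = 6 each). These 4 genes reached 1 RPKM only in metastases, so once admitted they had to differ, and their number is no support in itself. Of all genes tested, 4.71% passed and 3.65% were higher. Cd8a, Cd8b1 and Cd28 were not tested for want of level, although each was higher in all 6 pairs.

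Lck, the fifth member tested, averaged 37.5 ± 18.8 RPKM in M6 metastases and 35.2 ± 20.5 RPKM in M6 tumours (SD, n = 6 each). It was higher in 4 of 6 metastases, the groups overlapped, and the difference of 0.44 ± 0.62 (log2, SE) did not pass (adjusted p = 0.725, limma).

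Lung tissue and other immune cells moved with the M6 difference. The summed level of 9 lung epithelium genes was 1678, 3608 and 9615 RPKM (lowest, median, highest) in metastases and 1.68 to 5.21 RPKM in tumours, and that of 9 B cell genes was 6.80, 8.86 and 41.3 RPKM in metastases and 0.968 to 1.44 RPKM in tumours. In tumours as many as 4 of the 9 B cell genes were at 0. With the estimated lung share subtracted and the rest scaled up to a full sample, Cd3d was 1.90 higher (adjusted p = 0.037, limma). Cd4 was 1.68 higher (adjusted p = 0.0338, limma). Cd3g at 2.42 missed the threshold (adjusted p = 0.0695, limma) and Cd3e was no longer tested. The scaling raises what is left most where the lung share is high. The metastasis of mouse 820 was the highest of the 6 for 7 members, with Cd3e of 5.58 RPKM against 1.96 RPKM in the next, and its lung share was 47.0% against 8.87% to 18.4%. Without that mouse the differences were 1.69 for Cd3d, 1.29 for Cd3e, 2.14 for Cd3g and 1.38 for Cd4, and all 4 passed. The part of B cells in the result was not tested.

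Other T cell genes in M6 gave a mixed picture. Of the T cell surface list both genes tested were higher, Il7r, the interleukin 7 receptor (2.07 ± 0.25, log2, SE), and the adhesion receptor Cd2 (2.16 ± 0.32). Of 5 signalling genes tested, 2 were higher, the receptor zeta chain gene Cd247 (4.81 RPKM in metastases, 2.84 RPKM in tumours) and the kinase gene Prkcq. Cathepsin W gene Ctsw was the 1 of 2 cytotoxic genes to rise, and the homing receptor Ccr7 and the chemokine Cxcl9 were the 2 of 6 chemokine and receptor genes. None of 4 MHC class II genes passed by limma, with a median difference of 1.91, and 2 of 7 MHC class I genes did. The median over the 5 members tested was 1.58 and over all genes 0.02.

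The M6 difference was larger than that of the other models for the CD3 chains and Cd4. Against the mean difference of the other 9 models it was 1.49 ± 0.38 larger for Cd3d (adjusted p = 0.0185), 1.27 ± 0.32 for Cd3e (0.0155), 2.12 ± 0.44 for Cd3g (0.0026) and 1.40 ± 0.35 for Cd4 (0.0154), as log2 values with SE and adjusted p by limma, where 2.99% of genes passed. For Cd8a (0.68 ± 0.31), Cd8b1 (0.85 ± 0.35), Cd28 (0.72 ± 0.23) and Lck (0.11 ± 0.42) it did not pass. The other 9 models gave 1 further call among the 8 members, Cd28 in 6DT1, at -0.77 ± 0.23 (adjusted p = 0.0238, limma), where 8.85% of genes passed. Of the 72 contrasts of members outside M6, 11 were under 0.05 before adjustment, 7 of them in Met1. In 4T1, where 3.87% of genes passed, Cd8a (0.90, adjusted p = 0.0905) and Cd8b1 (0.77, adjusted p = 0.213) were under 0.05 before adjustment by limma and missed the adjusted threshold. In PyMT BL10, where 2.8% of genes passed, 0 of 8 members were called by limma and 0 were under 0.05 before adjustment.

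A test for any difference among the 10 models called Cd3e, Cd3g and Cd4, against 18.6% of genes. Without M6 it called none of the 8. Without 6 tumours rich in B cell genes it called 7, with a pseudocount of 0.1 it called 6, without Met1 it called 5 and without PyMT in FVB it called 1.

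**Figure D3:**
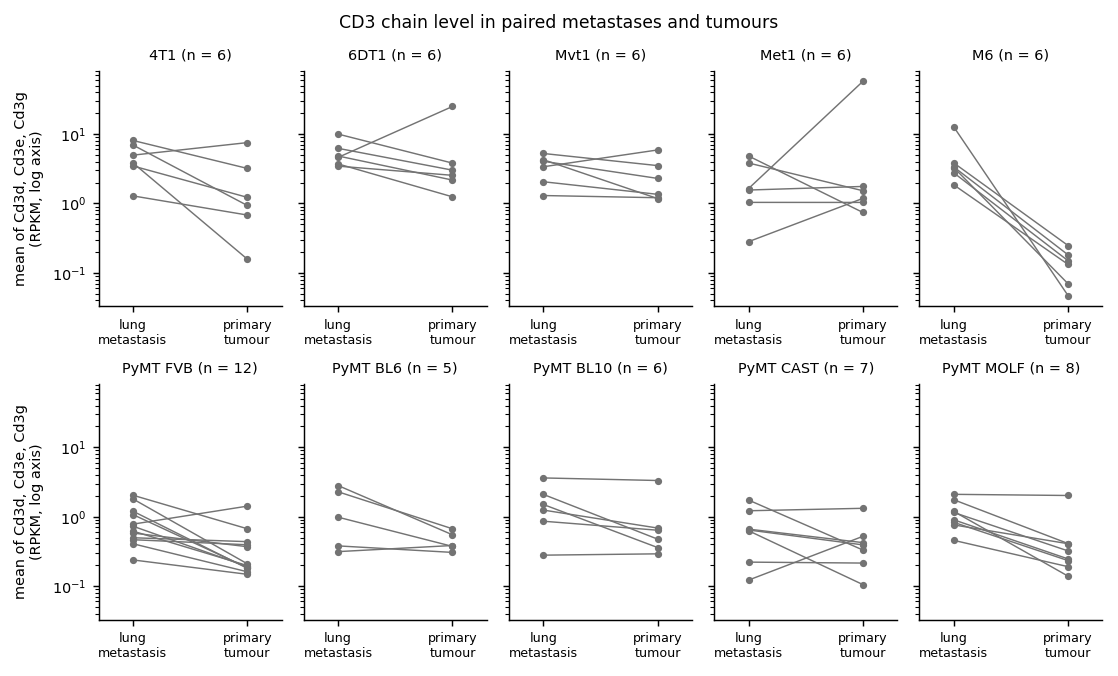
Mean of Cd3d, Cd3e and Cd3g in RPKM on a log axis, with lung metastases on the left of each panel and primary tumours on the right, joined by animal, for 10 models (5 to 12 pairs). All 6 M6 lines fall steeply to the tumours, and in Met1 and 6DT1 1 tumour lies far above the rest.

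With each model counted once, the shared difference between lung metastases and primary tumours was small. Cd3d was 0.61 ± 0.15 higher in metastases (log2, SE, adjusted p = 0.0111), Cd3g 0.63 ± 0.22 (adjusted p = 0.0466) and Lck 0.34 ± 0.11 (adjusted p = 0.0359, limma over 10 models), each higher in 9 of 10 models. Cd3e (0.37 ± 0.15), Cd8b1 (0.32 ± 0.13) and Cd4 (0.33 ± 0.16) did not pass, and Cd8a and Cd28 were not tested. The 3 of 6 members that passed compare with 31.2% of all genes, 11.7% of them higher. Their median was 0.36 over the 6 tested and -0.04 over all genes.

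The shared difference depended on how lung tissue was treated. With the lung share subtracted, none of the members passed, and Cd3d stood at 0.29 (adjusted p = 0.238, limma). When each model was left out in turn, Cd3d passed in all 10 fits, with differences of 0.46 to 0.70. Without 4T1, Mvt1, or PyMT in FVB, BL6, BL10 or MOLF it was the 1 member called, while Cd3g stood at 0.57 to 0.66 and Lck at 0.27 to 0.35 in those fits. Without M6 Cd3g was 0.42 and passed, and Lck did not. With no filter 1 passed, also Cd3d, and with a pseudocount of 0.1 all 6 did.

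Beside the members, 3 of 6 signalling genes tested were higher (Lat, 0.54 ± 0.12, Ptpn22, 0.50 ± 0.08, and Lcp2, 0.32 ± 0.10, log2 with SE), and so were 2 of 3 T cell surface genes (Cd2, 0.96 ± 0.15, and Il7r, 0.73 ± 0.16). Of 4 cytotoxic genes 2 were higher, Nkg7 and Ccl5, and of 7 chemokine and receptor genes 5, led by S1pr1 at 1.08 ± 0.15. S1pr1 is also carried by endothelium, and 6 of 6 endothelial genes, 9 of 9 lung epithelium genes, 6 of 6 neutrophil genes and 3 of 3 B cell genes were higher as well, while 5 of 6 fibroblast genes were lower. The part of these cell types in the shared result was not tested beyond the subtraction of lung.

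In the individual models other than M6 the members seldom passed. In 4T1 all 7 tested were higher by 0.76 to 1.16 (log2), in 5 or 6 of 6 pairs, with adjusted p of 0.0554 to 0.0793 by limma, so that 0 of 7 passed where 12.1% of genes did, while 7 were under 0.05 before adjustment. Cd3e was 0.658, 2.76 and 4.61 RPKM (lowest, median, highest of 6) in 4T1 metastases and 0.105, 0.527 and 3.83 RPKM in 4T1 tumours, and the groups overlapped. Leaving out mouse 12, whose tumour had the highest Cd3e, gave 6 calls, and a pseudocount of 0.1 gave 1. In the same model 4 of 6 cytotoxic genes passed, among them Ccl5 (31.4 RPKM in metastases, 7.35 RPKM in tumours) and Nkg7 (10.4 RPKM in metastases, 2.63 RPKM in tumours).

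In 6DT1 Cd8a was higher in metastases in more pairs than Cd4, but the coreceptors were not tested against each other. Cd8a was 1.48, 2.45 and 4.13 RPKM (lowest, median, highest of 6) in metastases and 0.431, 1.02 and 9.61 RPKM in tumours, higher in 5 of 6 pairs. Cd4 was 2.41, 3.33 and 5.40 RPKM in metastases and 1.19, 4.09 and 20.1 RPKM in tumours, higher in 2 of 6 pairs, and Cd28 was higher in 1 of 6. Every group overlapped. By limma 0 of 8 members passed, 0 were under 0.05 before adjustment, and 34.4% of genes passed. Without mouse 0, whose tumour was the highest for all 8 members, 6 passed, and without mouse 1 it was 1.

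In Mvt1 Cd3d was 1.43, 2.97 and 4.07 RPKM in metastases and 0.661, 1.19 and 4.59 RPKM in tumours (lowest, median, highest of 6), with 0 of 8 members passing by limma and 0 under 0.05 before adjustment (29% of genes). Without mouse 2 there was 1 call. In Met1 the tumour of mouse 1 lay above every metastasis: Cd4 was 0.580, 1.53 and 2.00 RPKM in metastases and 0.553, 0.791 and 56.5 RPKM in tumours. There 0 of 6 members passed by limma and 0 were under 0.05 before adjustment (0.317% of genes).

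The autochthonous PyMT models held little of the T cell genes in either tissue, and few members could be tested. In PyMT FVB Cd3e was 0.0922, 0.345 and 1.13 RPKM in metastases and 0.0454, 0.112 and 0.234 RPKM in tumours (lowest, median, highest of 12), and it was higher in 12 of 12 pairs although the groups overlapped. Lck, the only member tested there, was 0.23 ± 0.10 higher (log2, SE) and did not pass (adjusted p = 0.221, limma, with 1.27% of genes passing), but was under 0.05 before adjustment. With no filter 1 of 8 members passed.

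In PyMT MOLF Cd3g was 0.765, 1.46 and 3.72 RPKM in metastases and 0.0989, 0.474 and 3.64 RPKM in tumours, higher in 8 of 8 pairs, and Lck 1.01, 1.41 and 2.23 RPKM in metastases and 0.554, 0.735 and 1.24 RPKM in tumours, also in 8 of 8. Neither passed by limma (adjusted p = 0.0679 and 0.107, 1.1% of genes), both were under 0.05 before adjustment, and both passed after rescaling to median ratios. In BL6 Lck was higher in 5 of 5 pairs but did not pass (adjusted p = 0.304, limma, 0.651% of genes), again with 1 under 0.05 before adjustment. In CAST, where 4.51% of genes passed, no member reached the level needed for a test.

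In PyMT BL10 Lck averaged 2.43 ± 1.02 RPKM in metastases and 1.16 ± 0.95 RPKM in tumours (SD, n = 6 each), and was higher in 6 of 6 pairs with overlapping groups. The difference of 0.72 ± 0.13 (log2, SE, adjusted p = 0.0346, limma) was the 1 call among 2 members tested, where 2.56% of genes passed and 0.973% were higher. It was lost without the mouse as a block, with no filter, with the lung share subtracted, in the 5 pairs of a single RNA name series, and when any of 4 of the 6 mice was left out.

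A few tumours set the spread of their groups. In 6 primary tumours the summed level of 9 B cell genes was above 20 RPKM: mouse 1 of Met1 (1208 RPKM), tumour PT2 of EMT6 (279 RPKM), mouse 0 of 6DT1 (115 RPKM), mouse 12 of 4T1 (77.8 RPKM), a mouse of PyMT BL10 (50.8 RPKM) and mouse 2 of Mvt1 (30.8 RPKM). In 5 of them all 8 members were the highest of their group, and in 4T1 mouse 12 it was 7 of 8. Cd3e was 36.9 RPKM in the Met1 tumour and 0.23 to 1.58 RPKM in the 6 other Met1 tumours. It was 20.5 RPKM in the EMT6 tumour and 1.08 to 2.82 RPKM in the 3 others, and 14.6 RPKM in the 6DT1 tumour and 0.777 to 2.03 RPKM in the 5 others. Levels of B and T cell genes thus moved together in these tumours, and the part of B cells was not tested.

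Tissue labelled adjacent was compared with healthy tissue. Adjacent lung of PyMT FVB mice held Cd3e of 2.51 ± 0.78 RPKM (SD, n = 5), and healthy lung 2.68 ± 0.56 RPKM (SD, n = 4). For Lck, with the largest difference, the means were 3.80 ± 1.60 RPKM in adjacent lung and 5.80 ± 1.36 RPKM in healthy lung (-0.54 ± 0.23, log2, SE, adjusted p = 0.146, limma). All 8 members were tested and 0 passed, against 13.6% of genes, while 1 was under 0.05 before adjustment and 1 passed without the adjacent lung with the highest Lck, 6.44 RPKM. The adjacent and healthy lungs belong to different RNA name series, which cannot be told apart from the groups.

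Lung metastases of PyMT FVB mice held less of the T cell genes than adjacent lung of other PyMT FVB mice. Cd3g was 0.373, 1.01 and 2.83 RPKM (lowest, median, highest of 13) in metastases and 5.14 to 8.84 RPKM in 5 adjacent lungs, with no overlap. It fell by 1.82 ± 0.22 (log2, SE), and Cd3d fell by 1.61 ± 0.20, Cd3e by 1.26 ± 0.15, Lck by 0.98 ± 0.20 and Cd4 by 0.77 ± 0.22, with adjusted p between 1.03e-06 and 0.00567 by limma. Cd4 and Lck overlapped between the groups, the CD3 chains did not. All 5 members tested were lower, where 61.8% of genes passed and 27% were lower, and the median over all genes was 0.13. Each of these members was at 1 RPKM or more in all 5 adjacent lungs, which alone met the filter, so their number is no support in itself. The adjacent lungs came from other mice than the metastases, and only some of the metastases shared their RNA name series. With no filter all 8 passed. All 9 lung epithelium genes, 6 of 6 endothelial genes and 5 of 5 B cell genes tested were lower too, and their part in the result was not tested.

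The route of injection was tested in 4T1 and Mvt1. In 4T1, lung metastases raised by tail vein injection held less of the CD3 chains and Lck than those that spread from an orthotopic tumour. Lck was 1.06, 0.938, 3.36, 0.712, 1.56 and 2.06 RPKM in the 6 tail vein metastases and 8.16, 4.49, 4.89, 5.50, 7.78 and 2.65 RPKM in the 6 orthotopic metastases. Tail vein mouse 5 and orthotopic mouse 9 made the groups overlap.

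Lck fell by 1.34 ± 0.26 in 4T1 tail vein metastases (log2, SE, adjusted p = 0.0159), Cd3g by 1.73 ± 0.41 (adjusted p = 0.0332), Cd3d by 1.20 ± 0.31 (adjusted p = 0.0435) and Cd3e by 1.09 ± 0.29 (adjusted p = 0.0472, limma). Cd8b1 (-1.22 ± 0.37), Cd8a (-1.19 ± 0.41) and Cd4 (-0.74 ± 0.28) did not pass and Cd28 was not tested. The 4 of 7 members compare with 5.75% of all genes passing and 1.88% lower, and the member median of -1.20 with 0.01 over all genes. Lck was at 1 RPKM or more in every orthotopic metastasis, which alone met the filter. Cd3e reached 1 RPKM in only 1 tail vein metastasis (2.34 RPKM, next 0.749 RPKM). Members thus entered the test largely through the orthotopic group, and their number is no support in itself. Of further T cell genes, Cd2, Icos and Cd27 were 3 of 4 surface genes and Gzmb, Ccl5, Nkg7 and Ctsw 4 of 5 cytotoxic genes that fell. Lat was the 1 of 9 signalling genes to fall, Ctla4, Tnfrsf4 and Tnfrsf18 were 3 of 5 regulatory T cell genes, and the chemokines Cxcl10 and Cxcl11 were 2 of 9 chemokine and receptor genes.

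These 4T1 calls were close to the threshold. Lck alone was called with no filter, and when tail vein mouse 1, 4, 6, 8 or 9 or orthotopic mouse 1, 2, 10 or 12 was left out 1 member passed, Lck in each case. The count was 2 without orthotopic mouse 11, 6 without tail vein mouse 5 and 7 without orthotopic mouse 9. Lung tissue moved in the same direction: the 9 lung epithelium genes summed to 359, 1109 and 1497 RPKM (lowest, median, highest) in tail vein metastases and 548, 2515 and 12840 RPKM in orthotopic metastases. Their median difference was -1.33, 0 of 9 passed, and their part in the result was not tested. In Mvt1 Lck was 0.972, 3.25 and 4.68 RPKM (lowest, median, highest of 6) in tail vein metastases and 1.46, 3.76 and 4.93 RPKM in orthotopic metastases. There 0 of 8 members passed by limma and 0 were under 0.05 before adjustment, where 4.25% of genes passed. Whether the route difference itself differed between 4T1 and Mvt1 was not tested.

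**Figure D4:**
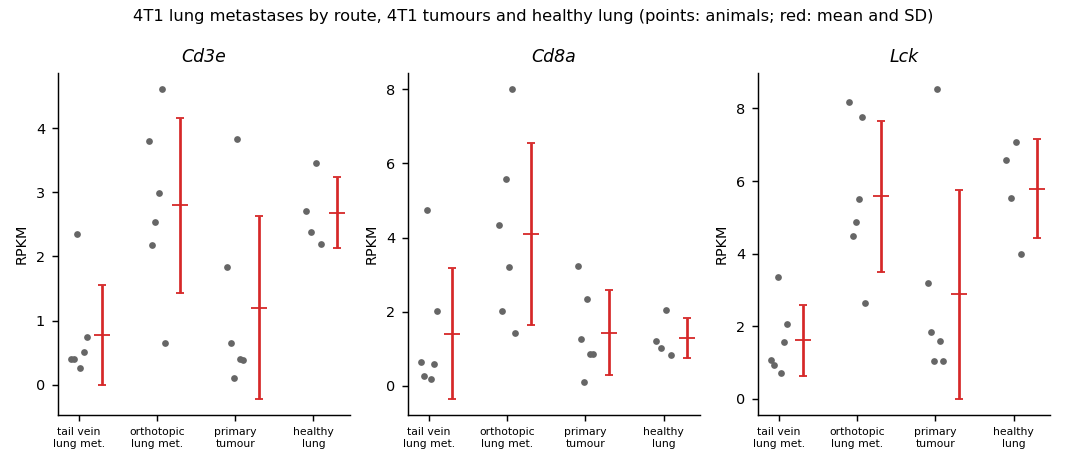
Cd3e, Cd8a and Lck in RPKM on linear axes, with a point per animal and the mean and SD in red, in tail vein and orthotopic 4T1 lung metastases, 4T1 primary tumours and healthy lung. Tail vein metastases lie low except for mouse 5, with Lck of 0.712 to 3.36 RPKM against 2.65 to 8.16 RPKM in orthotopic metastases. The healthy lungs are titled FVB, while 4T1 is a BALB line.

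Primary tumours differed widely among lines and strains, as did nearly every gene. Across the 21 groups with 3 or more animals all 8 members passed a test for any difference, with F between 3.68 for Cd4 and 9.45 for Lck, but so did 98.7% of all genes. 4T07, 4T1 and 67NR are BALB lines that were compared with each other as tumours. Cd4 was 0.764, 0.29, 0.511, 1.00, 0.506 and 0.292 RPKM in the 6 4T07 tumours and 1.08, 0.792, 1.45, 1.80, 4.76 and 1.51 RPKM in the 6 67NR tumours. Only the highest 4T07 tumour, mouse 7, reached into the 67NR range.

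Cd4 fell by 0.80 ± 0.23 in 4T07 tumours (log2, SE, adjusted p = 0.0091), while Lck rose by 0.84 ± 0.22 (adjusted p = 0.0040) and Cd3d by 0.61 ± 0.24 (adjusted p = 0.0357, limma). Cd8a averaged 4.42 ± 2.06 RPKM in 4T07 tumours and 2.36 ± 2.19 RPKM in 67NR tumours (SD, n = 6 each) and missed the threshold at 0.82 ± 0.35 (adjusted p = 0.0539). Cd3e, Cd3g and Cd8b1 did not pass either, with differences of 0.59 to 0.69 (adjusted p of 0.0922 to 0.114). All groups overlapped. The 3 of 7 members that passed compare with 64.8% of genes, 29.5% higher and 35.3% lower, so the share of members called was not above that of genes at large. Without 67NR mouse 5, the highest of its group, all 7 passed, but the share of all genes passing in that fit is not given here. Cd3d missed the threshold with no filter and when 4T07 mouse 1, 7 or 8 or 67NR mouse 1, 2, 3 or 4 was left out. 4T07 cells carry Lck in culture, and the part of the tumour cells in the Lck difference was not tested.

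The balance of the coreceptors differed between 4T07 and 67NR tumours, between which 64.8% of single genes also passed by limma. How many other gene pairs separate these 2 groups was not counted. The log2 ratio of Cd8a to Cd4, each with 0.1 RPKM added, was 2.77 ± 0.27 in 4T07 tumours and 0.12 ± 0.57 in 67NR tumours (SD, n = 6 each), and the lowest 4T07 tumour at 2.52 was above the highest 67NR tumour at 0.97. The difference of 2.65 had p = 0.00216 in a two-sided exact permutation test, the smallest that 6 against 6 can give, and 0.00433 adjusted over the 2 ratios compared. In 4T1 tumours the ratio was 0.62 ± 0.92, a difference of 0.50 from 67NR (exact permutation p = 0.279, adjusted 0.279). Cd8a was above Cd4 in 52 of 123 primary tumours, 23 of 88 lung metastases and none of 9 healthy or adjacent lungs. The mean ratio was lowest in HRM1 tumours at -2.63 and was -1.75 in 6DT1 tumours.

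Genes around the coreceptors also differed between 4T07 and 67NR tumours. All 7 MHC class I genes and all 6 MHC class II genes tested were higher in 4T07, and so was Cd274, which encodes the checkpoint ligand PD-L1 (21.8 RPKM in 4T07, 2.99 RPKM in 67NR). The CD28 ligand gene Cd80 was lower (0.751 RPKM in 4T07, 4.13 RPKM in 67NR). Granzyme A gene Gzma was 1.40 RPKM in 4T07 and 17.9 RPKM in 67NR, and the natural killer receptor gene Ncr1 0.643 RPKM in 4T07 and 2.79 RPKM in 67NR. All 6 macrophage genes tested were lower and all 6 neutrophil genes higher in 4T07, and their part in the coreceptor levels was not tested.

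**Figure D5:**
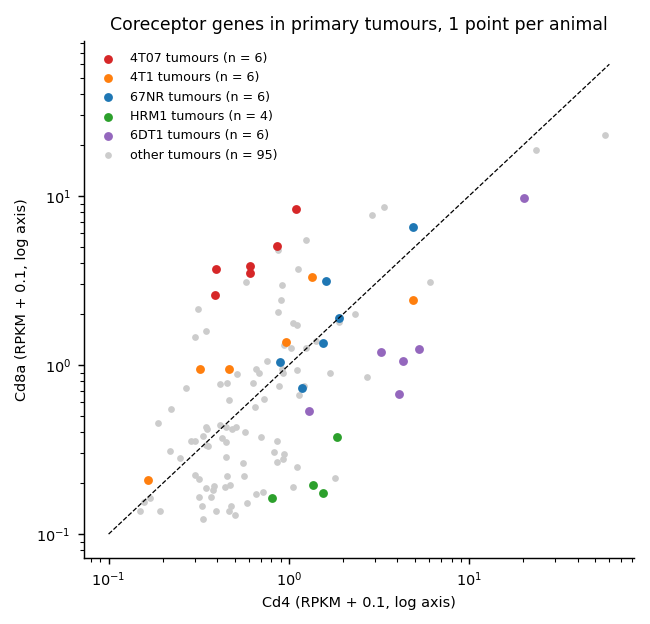
Cd8a against Cd4 in 123 primary tumours, in RPKM plus 0.1 on log axes, with the dashed line at equal levels. The 6 4T07 tumours lie well above the line, the 67NR tumours along it, and the 4 HRM1 and 6 6DT1 tumours below it.

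Tumours of 4T1 and 67NR gave 0 calls among 6 members tested by limma, and 0 under 0.05 before adjustment, where 59.4% of genes passed. Without 4T1 mouse 12 there was 1 call. Lines were also set against autochthonous tumours of the same driver. In 6DT1 tumours, a cMyc line, Cd4 was 1.19, 4.09 and 20.1 RPKM (lowest, median, highest of 6), and in MMTV-Myc tumours 0.233, 0.421 and 0.956 RPKM, with no overlap. All 4 members tested were higher in 6DT1: Cd3g by 2.21 ± 0.47, Cd4 by 1.91 ± 0.40, Cd28 by 1.78 ± 0.29 and Lck by 1.75 ± 0.39 (log2, SE, adjusted p of 1.45e-04 to 0.00151, limma), where 62.5% of genes passed and 38.6% were higher. Each of the 4 genes was at 1 RPKM or more in all 6DT1 tumours, which alone met the filter, so their number is no support in itself. The median over all genes was 0.16, and after rescaling the same 4 were called. With no filter all 8 passed, and 7 when any Myc tumour was left out. Cd28 is carried by 6DT1 cells in culture, and their part in that difference was not tested.

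Met1 tumours, a PyMT line, were set against PyMT FVB tumours. Cd3g was 0.734, 1.70 and 95.8 RPKM (lowest, median, highest of 7) in Met1 tumours and had a median of 0.483 RPKM in 14 PyMT FVB tumours. It was 1.50 ± 0.52 higher in Met1 (log2, SE, adjusted p = 0.0318, limma), the 1 call of 2 members tested, where 30.8% of genes passed and 12% were higher. Without the tumour of mouse 1, at 95.8 RPKM, the difference was 0.77 and still passed (adjusted p = 0.0153, limma). With no filter 4 passed. In the Met1 tumours of 4 mice that had also given a resected tumour, 0 of 3 members tested passed by limma between final and resected tumours and 0 were under 0.05 before adjustment, and 0 of all 10856 genes passed. Cd3g was 1.67 to 95.8 RPKM in final tumours and 0.175 to 1.49 RPKM in resected tumours, without overlap, higher in 4 of 4 pairs. Lck was the only member tested between PyMT tumours of BL6, BL10, CAST or MOLF parentage and FVB, and it did not pass by limma in any of the 4, with 0 under 0.05 before adjustment, where 6.59%, 9.37%, 13.1% and 36.2% of genes passed. Between Myc and PyMT FVB tumours it did not pass either, where 61.9% of genes did.

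Liver metastases of orthotopic M6 tumours held 28.1, 40.6 and 5.87 RPKM Lck with Cd3e of 0.0189 to 0.150 RPKM in 3 mice, and mouse 870, whose primary tumour had 1.02 RPKM Lck, had 28.1 RPKM in the liver and 30.5 RPKM in the lung. Liver metastases of intracardiac M6 cells were compared with adjacent liver of the same 5 mice. Lck averaged 24.6 ± 10.2 RPKM in metastases and 0.262 ± 0.066 RPKM in adjacent liver (SD, n = 5 each). It was 4.24 ± 0.18 higher (log2, SE, adjusted p = 1.43e-12, limma), the only member tested, where 93.2% of genes passed, 81.9% were higher and the median over all genes was 1.35. Only the metastases held Lck at 1 RPKM or more, so the gene was admitted to the test through them. After rescaling to median ratios Lck was 3.59 higher and 2 of 3 members tested passed, and with no filter 7 passed. Cd3e averaged 0.793 ± 0.291 RPKM in metastases and 0.350 ± 0.102 RPKM in adjacent liver, without overlap, but its highest value was 1.27 RPKM and it was not tested. The summed level of 6 hepatocyte genes was 6084, 8735 and 29287 RPKM (lowest, median, highest of all 7) in metastases and 18575, 26983 and 32865 RPKM in adjacent liver. Between M6 adjacent liver and healthy liver no member was tested, 1.96% of genes passed, and rescaling gave 1 call among the members.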

How the data were processed

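RNA of 335 mouse samples was sequenced, and expression is given in 1 table as RPKM, reads scaled by the authors to transcript length and library depth. TopHat, DESeq2 and the mm9 build are named, per the submitters' processing notes. What the authors did with each, and whether strand was counted, is not given in the sources used here. No counts were at hand, so no count test was used. Depth came from the equal steps of low RPKM values, and all member values were whole reads within 0.01 read. Over 1223 pairs of libraries 0 were identical. Where a sample's labels conflict, the source or cell line entry was followed for 1 Met1, 2 MOLF and 6 Mvt1 samples and the title for others.

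Libraries of 1 tissue of 1 animal were averaged. Log2(RPKM + 1) was fitted with limma 3.58.1 in R 4.3.3 (trend, robust), with the animal as block where titles name the same animal for both tissues. Genes at 1 RPKM or more in as many profiles as the smaller group holds were tested. A call needed a Benjamini-Hochberg p, adjusted over all genes tested, under 0.05. Overlap of groups was recorded for the members only, so where members did not overlap there is no share of all genes to compare. The fits were tested on simulated data. As a check of pairing, deviations correlated above 0.1 in 4 of 6 pairs of 4T1, 6DT1, Met1 and M6, 2 of 6 of Mvt1, 9 of 12 of FVB, 2 of 5 of BL6, 2 of 6 of BL10, 6 of 7 of CAST, 7 of 8 of MOLF, 5 of 5 M6 livers and 3 of 4 Met1 resections. Animals are separate, while cultures are isolations of 1 line.

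The members and gene lists were chosen with earlier results of these data known. Named beside the members were at most 4 genes a list with the smallest adjusted p, and the 10 (CD3 chains), 5 (Cd4) and 5 (Cd8a) genes with the highest r over group means, without predicted genes and receptor or immunoglobulin segments. 1 gene of the CD3 chain list is not reported here. The lung share is the median over 9 lung epithelium genes of the rise over tumours as a share of healthy lung, at most 95%. To subtract it, that share of the mean healthy lung level was taken from each gene. Negative values were set to 0, and the rest was divided by 1 less the share. Promoters are RefSeq's for GRCm38.p6. Ratios were tested with SciPy 1.17.1. Alternatives were a pseudocount of 0.1, no filter, rescaling to median ratios, no block, each animal or model left out, lung share subtracted and tumours over 20 RPKM of summed B cell genes left out, the last chosen after seeing the data.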

Additional observations from a re-analysis of the deposited data

Results flagged for a closer look

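Within groups of 4 to 10 animals, 309 combinations of group and gene were examined for a highest or lowest animal far from the rest on the log2(RPKM + 1) scale. Chance gives about 1 in 20 of these. Of 57 found, the 43 with a highest animal at 1 RPKM or more, or with a low animal standing apart, are given here, and 23 of them lie in the tumours rich in B cell genes. The causes were not tested.

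In the Met1 tumour of mouse 1 all 8 genes stood apart, with Cd3d at 39.6, Cd3e at 36.9, Cd3g at 95.8, Cd4 at 56.5, Cd8a at 22.8, Cd8b1 at 51.1, Lck at 67.5 and Cd28 at 7.87 RPKM. In the 6DT1 tumour of mouse 0 these were Cd3d at 23.3, Cd3e at 14.6, Cd3g at 37.0, Cd8a at 9.61, Cd8b1 at 14.4 and Lck at 22.0 RPKM. The EMT6 tumour PT2 stood apart for Cd4 at 23.5, Lck at 40.8 and Cd28 at 9.05 RPKM, and the 4T1 tumour of mouse 12 for Cd28 at 1.31 RPKM. In PyMT BL10 the tumour of the mouse rich in B cell genes stood apart for Cd3d at 2.57, Cd3e at 2.95, Cd3g at 4.46, Cd8a at 1.68 and Cd8b1 at 3.0 RPKM, and the lung metastasis of the same mouse for Cd8a at 2.35 RPKM.

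The M6 lung metastasis of mouse 820 stood apart for Cd3d at 9.18, Cd3e at 5.58, Cd3g at 23.2, Cd4 at 6.81, Cd8a at 4.5, Cd8b1 at 11.1 and Cd28 at 2.43 RPKM, but not for Lck. The M6 tumour of mouse 870 was low for Lck at 1.02 RPKM. The 4T07 tumour of mouse 7 was high for Lck at 7.19 and Cd28 at 1.34 RPKM, and the 4T1 tail vein metastasis of mouse 5 for Cd3e at 2.34 and Cd8b1 at 4.55 RPKM. In the PyMT models the tumours of a BL6 mouse (Cd4 at 1.04 RPKM), a CAST mouse (Cd3d at 1.5 RPKM) and a MOLF mouse (Cd3d at 1.82 and Cd3g at 3.64 RPKM) and the metastasis of another CAST mouse (Lck at 2.77 RPKM) were high. The Mvt1 tail vein metastasis of mouse 1 was low for Cd4 at 0.491 RPKM and a MOLF metastasis for Cd28 at 0.00382 RPKM.

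The difference between metastases and tumours was apart from the mean of the other 9 models, by a limma contrast, for Cd3d (1.49), Cd3e (1.27), Cd3g (2.12) and Cd4 (1.4) in M6 and for Cd28 (-0.77) in 6DT1, on the log2 scale.

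In M6 samples that entered no comparison, mean Lck was 24.9 RPKM in orthotopic liver metastases (n = 3), against 0.262 RPKM in M6 adjacent liver. It was 32.3 RPKM in the intracardiac lung metastasis, against 5.80 RPKM in healthy lung. Intracardiac M6 spleen metastases averaged 32.5 RPKM (n = 2), against 17.5 RPKM in Met1 adjacent spleen and 26.0 RPKM in Met1 spleen metastases.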

How the results depend on the processing

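Values here are numbers of the 8 members called by limma unless said otherwise. For the alternative fits, here and above, the share of all genes called is not given. Their counts thus show only how far the calls depend on the setting. With a pseudocount of 0.1 the number was 1 in 4T1 metastases against tumours, 6 in the shared comparison of 10 models and 6 in the test among models. With no filter on low values it was 1 in PyMT FVB metastases against tumours, 0 in BL10, 7 in M6 liver metastases, 4 in Met1 against PyMT FVB tumours, 8 in 6DT1 against Myc tumours, 4 in M6 against C3Tag tumours, 1 for the 4T1 route, 8 in PyMT FVB metastases against adjacent lung, 1 in the shared comparison and 8 in tumours against cultured cells. With the lung share subtracted it was 2 in M6, 0 in BL10 and 0 in the shared comparison. Rescaling to median ratios gave 2 in MOLF, 2 in M6 liver metastases and 1 in M6 adjacent against healthy liver. Without the tumours of high B cell genes, an alternative chosen after seeing the data, it was 6 in 4T1, 6 in 6DT1, 1 in Mvt1, 1 in 4T1 against 67NR tumours and 7 in the test among models.

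Leaving out each animal or model in turn gave 0 to 6 in 4T1, 0 to 6 in 6DT1, 0 to 1 in Mvt1, 0 to 1 in BL10, 0 to 1 in 4T1 against 67NR, 2 to 7 in 4T07 against 67NR, 4 to 7 in 6DT1 against Myc, 0 to 1 in M6 against C3Tag, 1 to 7 for the 4T1 route, 0 to 1 in adjacent against healthy lung, 1 to 3 in the shared comparison, 0 to 5 in the test among models and 1 to 6 in tumours against cultured cells. In BL10, whose animals pair metastasis and tumour, the fit with no replicate block called 0, as did the 5 pairs of name series KS, and the block moved no other count of members past 1.5 times. Over all alternatives 321 counts of members stayed within 1.5 times the reported one, 39 moved further, 16 went above 0 and 10 fell to 0, and of the single genes 523 kept their call and 82 lost it. None reversed. The low level of the members limits most comparisons: the filter leaves 1 or 0 of them to test in several models, and values of 0.1 RPKM rest on few reads.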

Other observations

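A tumour of the PyMT FVB group, whose strain entry reads MOLF, held Cd3g of 3.81 RPKM and Cd8a of 2.04 RPKM beside Cd3e of 0.11 RPKM and Cd8b1 of 0.48 RPKM, while the granzyme B gene Gzmb was 16.7 RPKM. The M6 brain metastasis held Lck of 0.92 RPKM and no read of Cd3g or Cd8a. The Met1 brain metastasis held Cd28 of 0.54 RPKM with no read of Cd3e, Cd3g or Cd8a. Of the 2 Met1 intracardiac liver metastases, mouse 6 held Cd3e of 6.44 RPKM and mouse 8 Cd3e of 0.0408 RPKM.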
